A study of Mus musculus with 15 samples.

Results

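Neutrophil and granulocyte precursor genes were followed through RNA-seq libraries of mouse trigeminal ganglia (TG), the ganglia that hold the sensory neurons of the cornea. The 10 genes were chosen by name, with earlier results of these data known, and classed as mature neutrophil or promyelocyte genes. The 5 mature neutrophil genes were S100a8, S100a9, Ngp, Camp and Ltf, and the 5 promyelocyte genes were Mpo, Elane, Prtn3, Ctsg and Ms4a3. Each matched 1 row of the 55573 genes in the table, and all 10 passed the filter on low counts together with 16567 genes in all. Male CD1 mice aged 10 weeks had the epithelium and anterior stroma of the right cornea removed inside a 2-mm circle. The eye then received vehicle, RvD6-standard (RvD6 from here on) or RvD6-isomer (RvD6si, a stereoisomer of RvD6) 3 times a day for 12 days. The right TG was taken on day 12, with 5 libraries in each of the 3 groups, so every group, vehicle included, carried the injury. The amount of lipid given is not stated in the sources used here, and no mouse without injury is part of the comparison. The question was whether genes of the neutrophil lineage differed in the ganglion on the injured side between the lipids and vehicle.

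Neutrophils arise in the bone marrow through a fixed order of stages. Promyelocytes make the primary granules and their contents, myeloperoxidase and the neutrophil serine proteinases, and later stages shut these genes off and make the secondary granule proteins. Circulating neutrophils hold much S100A8 and S100A9 protein and are drawn into injured tissue, whereas promyelocytes normally stay in the marrow. The transcription factors C/EBP and PU.1 drive genes of this lineage. S100a8 and S100a9 encode the 2 chains of calprotectin, a metal-binding alarmin. Ngp encodes neutrophilic granule protein, Camp the antimicrobial peptide cathelicidin and Ltf the iron-binding protein lactoferrin, all of the secondary granules. Since marrow stages after the promyelocyte make these proteins, the class called mature here does not mark mature cells alone. Mpo encodes myeloperoxidase, which makes hypochlorous acid. Elane, Prtn3 and Ctsg encode neutrophil elastase, proteinase 3 and cathepsin G, the primary granule serine proteinases. Ms4a3 encodes a membrane protein of granulocyte and monocyte progenitors.

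The members lie in a few neighbourhoods of the GRCm38 genome. S100a8 (chr3:90668978-90670035, plus strand) and S100a9 (chr3:90692632-90695721, minus strand) are 22597 bases apart. Elane (chr10:79886247-79888215) and Prtn3 (chr10:79874476-79883174), both on the plus strand, are 3073 bases apart. Camp (chr9:109847379-109849617, minus strand), Ngp (chr9:110419747-110423012, plus strand) and Ltf (chr9:111019271-111042767, plus strand) share a chromosome, with 570130 and 596259 bases between neighbours. Mpo is at chr11:87793581-87804413 on the plus strand, Ctsg at chr14:56099881-56102574 on the minus strand and Ms4a3 at chr19:11629496-11640851 on the minus strand. An exon of Mpo overlaps Gm11505 and an exon of Prtn3 overlaps Plppr3, each on the opposite strand. Counting ignored strand and dropped reads shared by 2 genes, so Mpo and Prtn3 were measured with less certainty than the other 8.

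The promoters of the members are shown as background, and a link between their letters and the levels was not tested. RefSeq sequence (GRCm38.p6, 250 bases before to 50 after the RefSeq start) was found for all 10, and letters of 5 motifs were searched in it. The letters TTNNGNAA, a core of C/EBP binding sites, occurred on either strand in 4 of 5 mature promoters and 1 of 5 promyelocyte promoters, beside 40.7% of all 32851 promoter windows. The letters GAGGAA, a core of PU.1 sites, occurred on either strand in 2 of 5 mature and 5 of 5 promyelocyte promoters, beside 28.3% of all windows. RUNX letters (TGNGGT, either strand) were in 3 of 10 and 45.8%, MYB letters (AACNGNC, either strand) in 4 of 10 and 32.8%, and TATAAA on the gene's strand in S100a8 and S100a9 and 8.32%. Matches of different motifs may overlap, and a match describes the letters only. The sequences that follow are 2 mature promoters with C/EBP letters in capitals, S100a9 (chr3:90695672-90695971, minus strand) and Ngp (chr9:110419558-110419857, plus strand), and 2 promyelocyte promoters with PU.1 letters in capitals, the neighbours Elane (chr10:79886062-79886361, plus strand) and Prtn3 (chr10:79879417-79879716, plus strand). They are written 5′ to 3′ on the strand of the gene.
S100a9: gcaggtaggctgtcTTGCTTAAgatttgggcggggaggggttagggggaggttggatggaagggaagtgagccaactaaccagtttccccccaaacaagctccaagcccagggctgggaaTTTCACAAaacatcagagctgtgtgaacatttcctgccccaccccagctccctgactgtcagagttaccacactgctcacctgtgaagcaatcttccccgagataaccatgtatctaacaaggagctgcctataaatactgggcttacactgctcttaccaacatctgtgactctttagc
Ngp: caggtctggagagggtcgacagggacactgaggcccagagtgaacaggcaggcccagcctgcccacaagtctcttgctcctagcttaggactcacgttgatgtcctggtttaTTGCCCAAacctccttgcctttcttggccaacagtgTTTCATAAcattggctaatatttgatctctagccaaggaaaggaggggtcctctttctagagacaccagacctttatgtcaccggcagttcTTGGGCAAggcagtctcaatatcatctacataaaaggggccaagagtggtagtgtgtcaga
Elane: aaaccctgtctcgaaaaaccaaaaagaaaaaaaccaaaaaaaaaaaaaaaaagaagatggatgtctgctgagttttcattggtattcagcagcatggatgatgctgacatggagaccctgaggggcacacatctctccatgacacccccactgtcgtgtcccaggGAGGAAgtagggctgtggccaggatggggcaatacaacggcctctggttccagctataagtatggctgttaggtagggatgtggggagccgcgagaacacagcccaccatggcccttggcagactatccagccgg
Prtn3: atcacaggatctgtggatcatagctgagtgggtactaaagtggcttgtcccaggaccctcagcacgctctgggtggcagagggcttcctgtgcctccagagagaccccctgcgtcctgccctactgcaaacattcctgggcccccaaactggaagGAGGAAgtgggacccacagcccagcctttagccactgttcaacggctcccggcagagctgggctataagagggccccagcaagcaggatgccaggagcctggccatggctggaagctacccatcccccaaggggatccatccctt
In S100a9 and Ngp the capitals fall at 2 and 3 places, and in Elane and Prtn3 at 1 place each, between positions -85 and -80 and between -95 and -90 from the start.

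Total counts per library ran from 4125962 to 9903396, and the shallowest library was RvD6si replicate 15. Levels are given as CPM, counts scaled to a common library size with TMM factors. Library RvD6si 15 stood apart from the other 4 of its group: it was the highest RvD6si library for 10 of 10 members and the highest of all 15 libraries for 5 of them. The share of all genes is not given here for either count. In RvD6si 15 the levels of the members and the sum of erythroid genes lay within or above the range of the RvD6 libraries. Whether its label is right cannot be told from the files, so the members' RvD6si results are given with and without it. RvD6 libraries 8 and 9 stood apart by muscle genes, with 1562 and 2217 CPM summed over 6 skeletal muscle markers against 15.5 to 139.6 CPM in vehicle. The 10 members took 0.0112% to 0.0582% of the counts of a vehicle library, 0.0690% to 0.2294% of an RvD6 library, and 0.0056% to 0.0136% of RvD6si libraries 11 to 14 but 0.2115% of RvD6si 15. Sensory neuron markers (10 genes, 5967 to 12730 CPM in sum), satellite glia and Schwann cell markers were abundant in all 15 libraries, as the tissue label says. These are bulk libraries of whole ganglia, in which fewer cells of a type and less RNA per cell cannot be told apart. No label ties a library to a batch or says how animals relate to each other, so the p-values measure the spread between these libraries.

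The mature neutrophil genes were 5.6 to 6.63 times as high in RvD6 as in vehicle, with no overlap between the 5 libraries of either group. S100a8 measured 16.8, 16.4, 27.6, 69.5 and 26.4 CPM in vehicle, 237, 303, 131, 89.1 and 258 CPM in RvD6, and 13.7, 15.6, 5.64, 6.50 and 342 CPM in RvD6si. Its lowest RvD6 library lay above its highest vehicle library, number 4, and RvD6si 15 lay above all others. S100a9 measured 20.4, 24.0, 49.4, 105 and 36.9 CPM in vehicle, 338, 446, 169, 143 and 341 CPM in RvD6, and 18.7, 25.0, 10.6, 10.1 and 444 CPM in RvD6si. The order of the libraries was much as for S100a8, its partner chain. Ngp measured 32.1, 53.0, 74.9, 222 and 63.6 CPM in vehicle, 663, 814, 396, 267 and 811 CPM in RvD6, and 48.3, 20.3, 18.7, 29.3 and 617 CPM in RvD6si. Again RvD6 and vehicle did not overlap, and RvD6si split into 4 low libraries and 1 high one. Camp, the cathelicidin gene, measured 12.3, 9.07, 8.14, 42.9 and 6.65 CPM in vehicle, 95.1, 142, 52.0, 46.6 and 121 CPM in RvD6, and 7.95, 4.29, 2.56, 4.62 and 149 CPM in RvD6si. Ltf, the lactoferrin gene, measured 22.6, 26.2, 40, 109 and 83.2 CPM in vehicle, 414, 400.5, 174, 115 and 469.5 CPM in RvD6, and 29.8, 3.63, 10.6, 16.6 and 239 CPM in RvD6si. For both, vehicle 4 was the highest vehicle library and RvD6 9 the lowest RvD6 library, and these came closest for Camp (42.9 and 46.6 CPM) and Ltf (109 and 115 CPM).

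**Figure D1:**
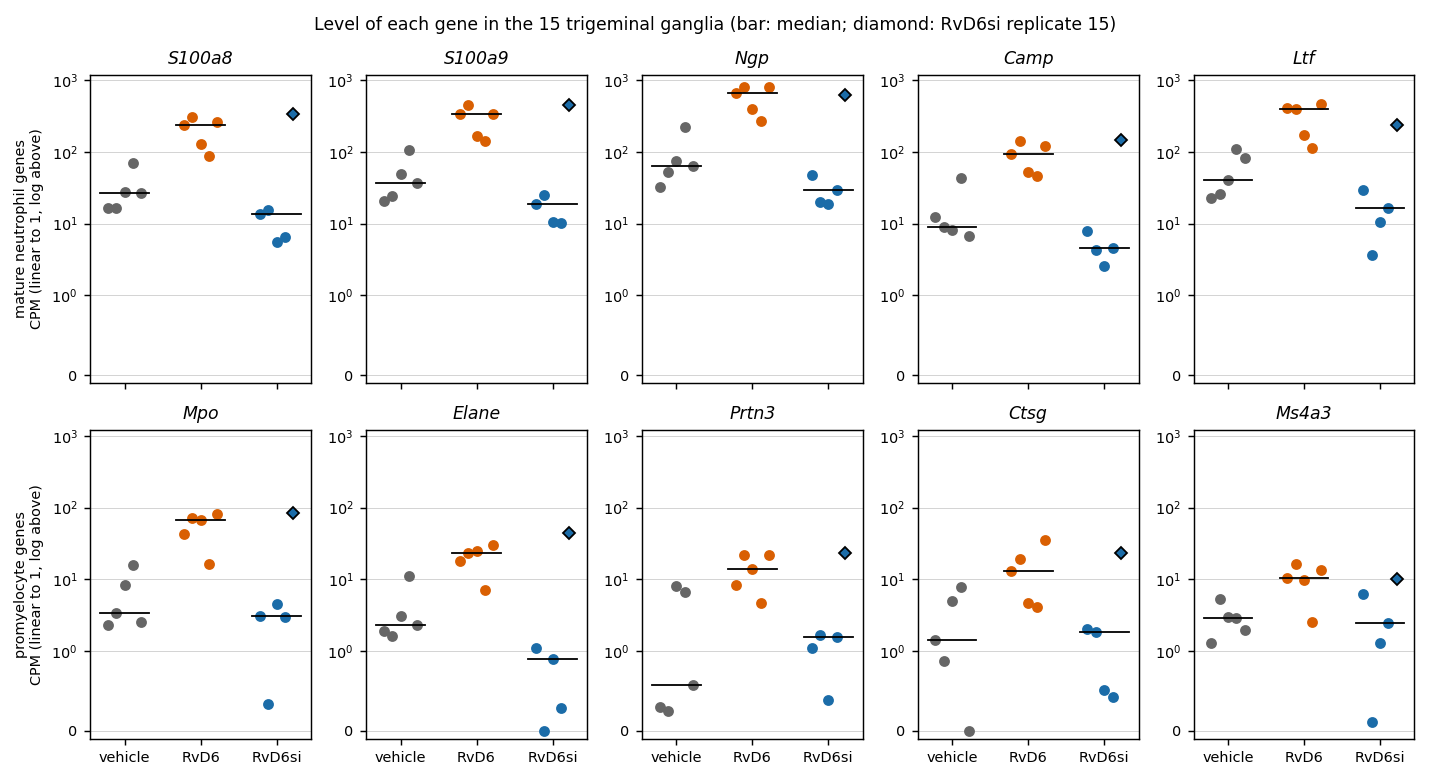
Level of each gene in CPM (linear to 1 and logarithmic above) in the 5 vehicle, 5 RvD6 and 5 RvD6si libraries, 1 point per library in the order of replicate numbers, with the group median as a bar and RvD6si replicate 15 as a diamond. In the upper row every RvD6 point lies above every vehicle point, and the diamond lies at the height of the RvD6 points in all 10 panels.

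The promyelocyte genes were lower in level and followed the same libraries. Mpo measured 2.32, 3.35, 8.25, 15.7 and 2.52 CPM in vehicle, 42.3, 72.4, 66.2, 16.3 and 81.2 CPM in RvD6, and 3.12, 0.33, 4.48, 3.03 and 84.5 CPM in RvD6si. It was the 1 promyelocyte gene whose RvD6 and vehicle libraries did not overlap, by 16.3 against 15.7 CPM at the closest. Elane measured 1.91, 1.61, 3.12, 11.3 and 2.29 CPM in vehicle, 17.9, 23.4, 24.9, 7.03 and 29.7 CPM in RvD6, and 1.09, 0, 0.90, 0.29 and 44.9 CPM in RvD6si. The RvD6 range reached into the vehicle range through RvD6 9 and vehicle 4, and no read was counted in RvD6si 12, where a count of 0 allows a level of up to 0.33 CPM (3 counts, counting error only). Prtn3 measured 0.30, 0.25, 8.14, 6.60 and 0.57 CPM in vehicle, 8.46, 21.8, 14.0, 4.63 and 21.6 CPM in RvD6, and 1.09, 1.65, 0.38, 1.59 and 23.3 CPM in RvD6si. Vehicle 3 and 4 were over 10 times as high as the other 3 vehicle libraries for this proteinase. Ctsg measured 1.41, 0.87, 5.02, 7.70 and 0 CPM in vehicle, 12.9, 19.4, 4.68, 4.11 and 35.5 CPM in RvD6, and 2.03, 1.87, 0.51, 0.43 and 23.3 CPM in RvD6si. Its RvD6 libraries 8 and 9 lay within the vehicle range, and vehicle 5 had no read, which allows up to 0.344 CPM. Ms4a3 measured 1.31, 5.34, 3.01, 2.89 and 1.95 CPM in vehicle, 10.3, 16.2, 9.74, 2.57 and 13.4 CPM in RvD6, and 6.23, 0.11, 1.28, 2.46 and 10.2 CPM in RvD6si. It had the narrowest spread in vehicle and the smallest step to RvD6si 15, which was 1.64 times the next RvD6si library against 41.1 times for Elane.

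Set per kilobase of exon, so that genes can be compared, S100a9 had the highest group median and the promyelocyte genes the lowest. The median over the RvD6 libraries was 647 CPM per kb for S100a9, 543 for Ngp, 341 for S100a8, 125.5 for Camp and 116 for Ltf. It was 23.8 CPM per kb for Elane, 19.4 for Mpo, 12.5 for Ctsg, 8.10 for Prtn3 and 5.47 for Ms4a3. In vehicle the medians were 70.7 CPM per kb for S100a9, 52.1 for Ngp, 38 for S100a8, 12.0 for Camp and 11.6 for Ltf, the same order. The promyelocyte genes stood at 2.33 for Elane, 1.53 for Ms4a3, 1.36 for Ctsg, 0.98 for Mpo and 0.33 CPM per kb for Prtn3 in vehicle. Means ± SD over the 5 RvD6 libraries often overlapped between neighbours in this order. Examples were S100a9 (550.3 ± 245 CPM per kb) and Ngp (483 ± 203), Camp (120.4 ± 55.0) and Ltf (91.1 ± 46.0), and Elane (20.9 ± 8.81) and Mpo (16.3 ± 7.69). That SD is a spread between libraries, whereas both genes of a pair were measured in the same libraries. Library by library, Camp lay above Ltf and Elane above Mpo in every RvD6 library. S100a9 and Ngp changed order, with 647 and 543 CPM per kb in RvD6 6 and 653 and 664 in RvD6 10. Between the classes the order was plain in RvD6, with the lowest mature median (Ltf) far above the highest promyelocyte median (Elane).

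With all libraries, RvD6 against vehicle gave the largest log2 fold changes of the 3 comparisons. With edgeR's quasi-likelihood test and adjustment over all genes, 0 of 10 members passed an adjusted p of 0.05, and 0% of all genes did. At an unadjusted p below 0.05, 10 of 10 members were higher in RvD6, beside 7.63% of all genes tested. DESeq2 called 0 of 10 members after adjustment, beside 1.44% of genes called higher. Unadjusted, 9 of 10 were below 0.05 in DESeq2. The share of all genes at that unadjusted cut is not given here, so this count is not read as particular to the members. The log2 fold change had a median of 2.61 over the mature genes and 2.36 over the promyelocyte genes, against 0.02 over all genes. For S100a8 it was 2.70 ± 0.91 (SE), with an adjusted p of 0.212 in edgeR, and for S100a9 2.61 ± 0.87 with the same adjusted p in edgeR. Ngp stood at 2.73 ± 0.84 and had the smallest adjusted p of edgeR among the members, 0.19. Camp stood at 2.54 ± 0.91 and Ltf at 2.49 ± 0.81. Mpo had the largest value, 3.13 ± 0.98 with an adjusted p of 0.191 in edgeR, and Ms4a3 the smallest, 1.85 ± 0.71 with 0.271. Elane, Prtn3 and Ctsg stood at 2.36 ± 1.09, 2.16 ± 1.00 and 2.36 ± 1.03. In 6 of 10 members, the 5 mature genes and Mpo, all RvD6 libraries lay above all vehicle libraries, which held for 2.15% of all genes tested.

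The common fit takes 1 spread per gene from all 3 groups, and RvD6si 15 entered it: the SE of S100a8 in RvD6 against vehicle was 0.91 with that library and 0.43 without it. Fitted on the RvD6 and vehicle libraries alone, edgeR called 4 of 10 members higher in RvD6 (S100a8, S100a9, Ngp and Mpo), beside 0.234% of genes. With RvD6si 15 left out of the fit of 3 groups, edgeR called these 4 and Camp, 5 of 10, beside 0.293% of genes. There S100a8 had a log2 fold change of 2.70 ± 0.43 with an adjusted p of 0.0228 in edgeR, Camp 2.54 ± 0.48 with 0.0376, and Mpo 3.13 ± 0.59 with 0.0357. DESeq2 without that library called 7 of 10, the 5 mature genes, Mpo and Elane, beside 1.9% of genes. Prtn3, Ctsg and Ms4a3 did not pass in any of these fits. The emphasis on this library was chosen after its values were seen. It lay far above the rest of its group in 9 members, so leaving it out narrows their spread by construction. The calls in fits of 3 groups without RvD6si 15 follow in part from that choice. The shares over all genes leave out the same library without such a choice.

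RvD6si against vehicle depended on RvD6si 15. With all libraries, 0 of 10 members passed in edgeR (0.67% of all genes did) and 0 of 10 were below 0.05 unadjusted (16% of genes). DESeq2 called 0 of 10 (8.13% of genes) and gave no adjusted p for Ms4a3. The log2 fold changes were above 0 for 10 of 10 members, from 0.07 ± 0.79 for Ltf to 1.54 ± 0.95 for Mpo, and all intervals were wide. For S100a8 the 95% interval of the log2 difference ran from -0.57 to 3.11, and for Elane from -1.09 to 3.44. The median of the RvD6si libraries was below that of vehicle for 8 of 10 members, and above it for Prtn3 (1.59 against 0.57 CPM) and Ctsg (1.87 against 1.41 CPM). For S100a8 the group median was 26.4 CPM in vehicle and 13.7 CPM in RvD6si, and for Elane 2.29 and 0.90 CPM. Libraries 11 to 14 all lay below the vehicle median in 6 of 10 members, the 5 mature genes and Elane. Libraries 11 to 14 leave out the highest RvD6si library of every member. The share of all genes was not computed for this count or that of the group medians, so neither is read as particular to the members.

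With RvD6si 15 left out, all 10 log2 fold changes against vehicle turned below 0. Since that library was the highest of its group for all 10 genes, leaving it out lowers the group by construction. The median was then -1.62 for the mature genes and -1.28 for the promyelocyte genes, against 1.06 and 0.86 with it. In edgeR 0 of 10 members were called lower (0.088% of genes were), and 6 of 10 were below 0.05 unadjusted, the 5 mature genes and Elane (7.62% of genes). DESeq2 called the same 6 of 10 lower, beside 3.32% of genes, and gave no adjusted p for Ms4a3. S100a8 stood at -1.59 ± 0.47 with an adjusted p of 0.108 in edgeR and 0.0371 in DESeq2. Elane stood at -2.83 ± 0.77 with an adjusted p of 0.0839 in edgeR and 0.00323 in DESeq2. The 4 libraries lay below all 5 vehicle libraries for 2 of 10 members, S100a8 and Elane, beside 3.8% of all genes tested.

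RvD6 and its stereoisomer RvD6si were compared directly, on the same schedule of treatment, although the sources used here give no dose for either. With all libraries 0 of 10 members passed in edgeR, beside 0.235% of genes. Unadjusted, 2 of 10 were below 0.05 and lower in RvD6si, beside 4.64% of genes: Ltf at -2.42 ± 0.82 with an adjusted p of 0.339 in edgeR, and Ngp at -2.02 ± 0.82 with 0.468. DESeq2 called 0 of 10, beside 0.936% of genes. The 95% intervals ran from -4.13 to -0.71 for Ltf, from -3.25 to 0.39 for S100a8 and from -3.39 to 1.02 for Elane, and included 0 for 8 of 10 members, all but Ltf and Ngp, which does not show that the lipids act alike.

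Without RvD6si 15, 7 of 10 members were called lower in RvD6si than in RvD6 by edgeR, the 5 mature genes, Mpo and Elane, beside 0.833% of genes. DESeq2 called 9 of 10, all but Ms4a3, beside 2.01% of genes. S100a8 stood at -4.29 ± 0.51 with an adjusted p of 0.000448 in edgeR, Ltf at -4.39 ± 0.64 with 0.00243, Mpo at -4.36 ± 0.70 with 0.00514 and Elane at -5.19 ± 0.80 with 0.00393. Prtn3 and Ctsg stood at -3.56 ± 0.93 and -3.65 ± 0.98, and Ms4a3 at -2.07 ± 0.73. RvD6si libraries 11 to 14 lay below all RvD6 libraries in 9 of 10 members, beside 3.21% of all genes, and Ms4a3 was the exception. RvD6si 15 was singled out after it was seen to be the highest of its group for 10 of 10 members. Leaving it out lowers the group by construction, so these calls and adjusted p-values follow in part from that choice. The shares over all genes leave out the same library without such a choice. RvD6si 15 itself was higher than every vehicle library in 10 of 10 members and higher than every RvD6 library in 5 of 10 (S100a8, Camp, Mpo, Elane and Prtn3). The share of all genes is not given here for either count, so neither is read as particular to the members. The comparisons share their libraries: vehicle between the first 2, RvD6si between the last 2, and RvD6 between the first and the last. They are therefore not independent of each other.

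**Figure D2:**
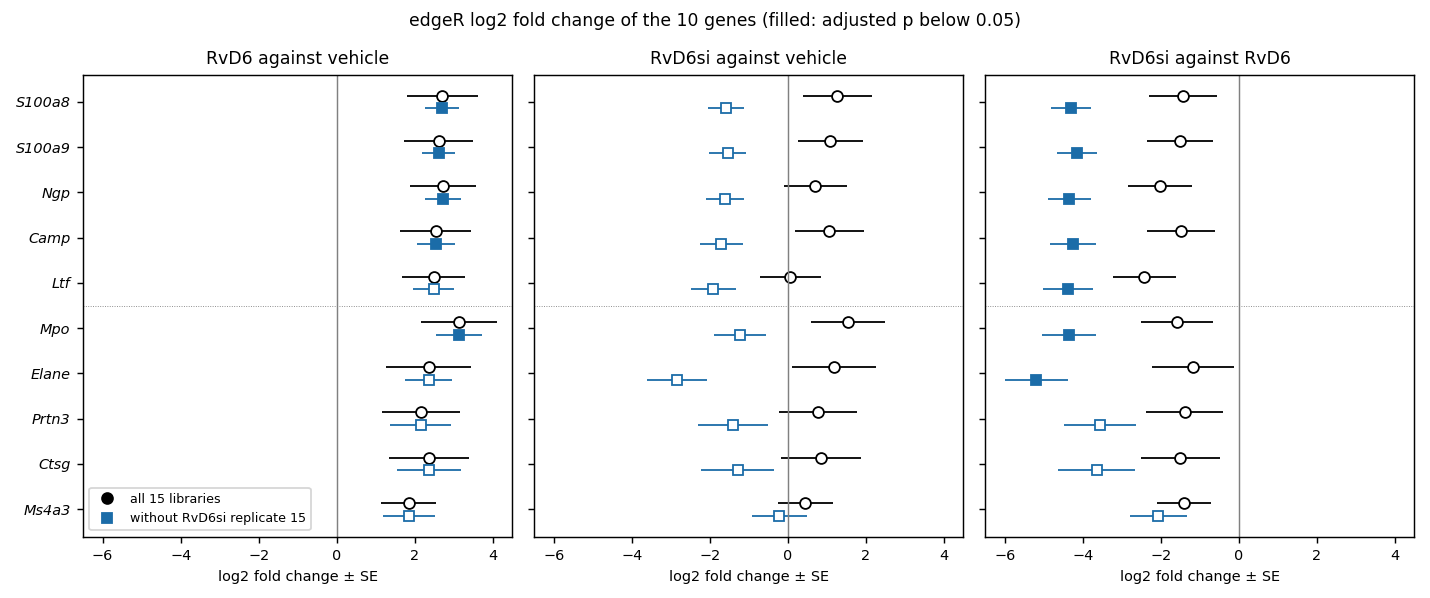
Log2 fold change ± SE of each gene from edgeR for RvD6 against vehicle, RvD6si against vehicle and RvD6si against RvD6, with all 15 libraries (black circles) and without RvD6si replicate 15 (blue squares); filled symbols have an adjusted p below 0.05, and a dotted line parts mature from promyelocyte genes. Leaving out the library leaves the values of the left panel in place, turns all 10 in the middle panel from above to below 0, and moves the mature genes of the right panel to between -4.39 and -4.15.

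The proportion of mature to promyelocyte genes varied within each group, and its difference between groups was not tested. The 5 mature genes summed to 112 to 572 CPM per kb in vehicle, 715 to 2261 in RvD6, 50.2 to 114 in RvD6si 11 to 14 and 2114 in RvD6si 15. The 5 promyelocyte genes summed to 4.43 to 28.8 CPM per kb in vehicle, 19.9 to 107.8 in RvD6, 2.92 to 7.92 in RvD6si 11 to 14 and 112 in RvD6si 15. The ratio of the sums averaged 24.1 ± 11.6 (SD) over the 5 vehicle libraries, 25.9 ± 8.99 over the 5 RvD6 libraries and 19.2 ± 7.49 over the 5 RvD6si libraries. Its ranges overlapped, from 13.0 to 43.7 in vehicle, 15.3 to 35.9 in RvD6 and 13.9 to 32.1 in RvD6si, and RvD6si 15 stood at 18.9. Across the 15 libraries each mature gene followed the mean log2 CPM of the other 4 mature genes with a Pearson r of 0.933 to 0.993, and each promyelocyte gene followed the mature mean with r from 0.786 (Ms4a3) to 0.955 (Elane). These correlations share library depth and the group differences, and describe the 15 libraries only.

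**Figure D3:**
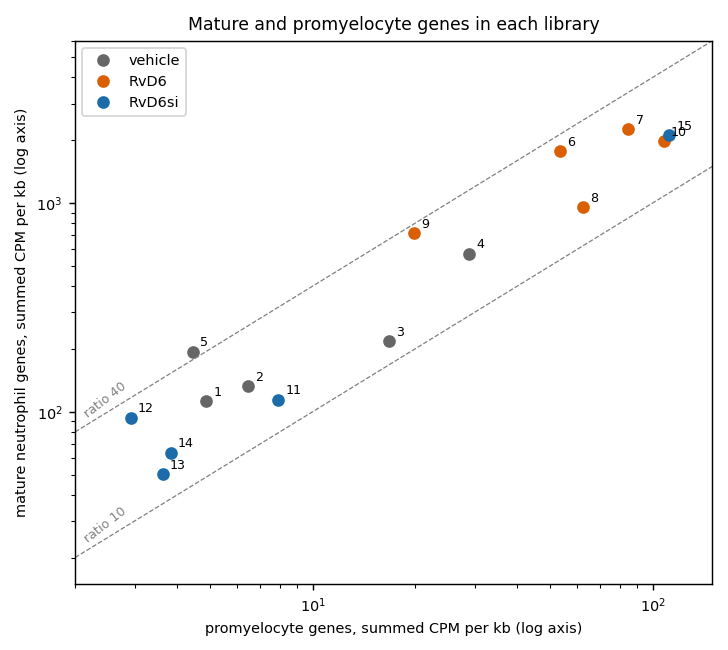
Summed CPM per kb of the 5 mature neutrophil genes against the 5 promyelocyte genes in each of the 15 libraries, on log axes, numbered by replicate, with dashed lines at ratios of 10 and 40. Vehicle, RvD6 and RvD6si libraries lie along 1 band, with RvD6si 15 among the RvD6 libraries and all libraries but vehicle 5 between the dashed lines.

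Other neutrophil genes followed the members. Of 15 further granule and late neutrophil genes 13 were tested, and all 13 were above 0 in RvD6 against vehicle, with a median log2 fold change of 2.33. None passed in edgeR, 9 were below 0.05 unadjusted, and DESeq2 called 3 higher: Mmp9, which encodes gelatinase B, at 3.11 ± 0.69 in edgeR (adjusted p 0.0967 in edgeR, 0.00567 in DESeq2), Chil3 at 2.41 and Ly6g, the neutrophil surface marker, at 3.39. Mmp9 measured 1.71 to 7.56 CPM in vehicle, 22.8 to 48.1 in RvD6, 1.65 to 5.35 in RvD6si 11 to 14 and 39.65 in RvD6si 15. In RvD6si against RvD6 1 of the 13 passed in edgeR, Chil3, which encodes a chitinase-like lectin, at -3.27 with an adjusted p of 0.0247 in edgeR. Chil3 stood at 69.5 CPM in RvD6si 15, below the 126 to 447 CPM of RvD6, unlike the members. Against vehicle, where DESeq2 gave an adjusted p to 10 of the 15 genes, RvD6si had 0 calls in the list by either tool. There 1 gene was below 0.05 unadjusted and the median was 0.19. Without RvD6si 15 that median was -1.57, with 9 genes lower at an unadjusted p below 0.05, 1 called lower by edgeR (Lcn2, at -2.26 with an adjusted p of 0.0439 in edgeR) and 4 by DESeq2. Against RvD6, edgeR then called 9 of the 13 lower and DESeq2 13 of 14, and in RvD6 against vehicle they called 5 and 8 higher.

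Receptors and adhesion molecules of neutrophils gave a like picture. All 12 of 15 that were tested were above 0 in RvD6 against vehicle (median 2.05), with 0 calls in edgeR, 8 below 0.05 unadjusted and 2 calls in DESeq2. These were Csf3r, the receptor of granulocyte colony-stimulating factor, at 3.13 (adjusted p 0.114 in edgeR, 0.0034 in DESeq2) and C5ar1, a complement receptor, at 2.37. RvD6si had 0 calls by either tool, with 1 receptor below 0.05 unadjusted against vehicle and 4 against RvD6. Against vehicle, DESeq2 gave an adjusted p to only 2 of the 15 receptors. Without RvD6si 15, the median against vehicle went from 0.49 to -0.77, and edgeR called 1 receptor lower, the chemokine receptor gene Cxcr2, at -3.02 with an adjusted p of 0.0446 in edgeR. Against RvD6, edgeR then called 2 and DESeq2 7 receptors lower, and in RvD6 against vehicle 2 and 4 were called higher. The 6 subunits of the NADPH oxidase, which makes superoxide, had a median of 1.82 in RvD6 against vehicle, 0 calls in edgeR, 5 below 0.05 unadjusted and 3 in DESeq2, Cybb (2.28), Ncf1 (1.80) and Cyba (1.80). In the RvD6si contrasts they had 0 calls by either tool, with 1 below 0.05 unadjusted against vehicle and 4 against RvD6. Without RvD6si 15 their median against vehicle went from 0.25 to -0.51 with 0 calls by either tool, edgeR called 3 and DESeq2 5 of them lower than in RvD6, and in RvD6 against vehicle 1 and 5 were called higher.

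Genes that direct neutrophil production and movement were mostly low. Of 11 chemoattractants and growth factors only Cxcl12 passed the filter. Cxcl3, Csf3, Csf2 and Il17a had 0 reads in all 15 libraries, and Cxcl1, Cxcl2, Cxcl5, Il1b, Il6 and Tnf had 43 reads or fewer over any group. Cxcl12, which retains neutrophils and progenitors in the marrow, measured 81.8 to 105.6 CPM in vehicle, 145.6 to 185.6 in RvD6, 88.8 to 105.6 in RvD6si 11 to 14 and 191 in RvD6si 15. Its log2 fold change in RvD6 against vehicle was 0.72, with an adjusted p of 0.137 in edgeR and 0.0165 in DESeq2, and without RvD6si 15 edgeR called it (0.72, adjusted p 0.0228 in edgeR) and also in RvD6si against RvD6 (-0.76, adjusted p 0.0108 in edgeR). Among the 9 granulopoiesis transcription factors 6 were tested, with 0 calls by either tool in any contrast and a median of 0.49 in RvD6 against vehicle, where 2 were below 0.05 unadjusted. In RvD6si against vehicle, DESeq2 gave an adjusted p to only 3 of these 9. Myb, a factor of progenitors, had the smallest p, at 2.81 with an adjusted p of 0.223 in edgeR, and DESeq2 called it without RvD6si 15 (adjusted p 0.0481 in DESeq2). The 8 other progenitor and promyelocyte genes, all tested, had a median of 0.95 in RvD6 against vehicle. Of these, 6 were above 0 and 1 was below 0.05 unadjusted. In RvD6si against RvD6 their median was -0.05 with 3 above 0, and without RvD6si 15 it was -1.22 with 4 above 0. Among them, Fcnb (ficolin B) was called by DESeq2 in RvD6 against vehicle, at 5.86 with an adjusted p of 0.0224 in DESeq2 and 0.0967 in edgeR. The stem and progenitor kinase gene Flt3 was called by DESeq2 in RvD6si against vehicle, at 1.05 (adjusted p 0.143 in edgeR, 0.043 in DESeq2). It did not follow the members, with 7.25 CPM in RvD6si 15 and 9.67 to 25.7 CPM in RvD6si 11 to 14. Of the 4 inhibitors of granule proteinases, Serpinb6a was called lower by DESeq2 in RvD6 (-0.36) and in RvD6si (-0.33) against vehicle, and none passed in edgeR.

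Markers of other blood and marrow cells moved with the members, and their part in the results was not tested. The summed level of 10 erythroid genes ran from 2591 to 5354 CPM in vehicle, 5958 to 11010 in RvD6, 1117 to 2766 in RvD6si 11 to 14 and 12370 in RvD6si 15. All 10 were above 0 in RvD6 against vehicle, with 9 below 0.05 unadjusted, 0 calls in edgeR and 1 in DESeq2, the band 3 gene Slc4a1 at 3.69 (adjusted p 0.00853 in DESeq2, 0.0967 in edgeR). Megakaryocyte and platelet genes (6) summed to 21.9 to 67.1, 75.9 to 182 and 15.7 to 25.4 CPM in vehicle, RvD6 and RvD6si 11 to 14, and to 210.5 CPM in RvD6si 15. Eosinophil and basophil genes (4) gave 4.33 to 50.3, 31.7 to 213, 6.02 to 14.3 and 82.7 CPM in that order. Monocyte genes (5) gave 20.4 to 49.8, 66.8 to 121, 20.8 to 29.1 and 116.5 CPM. Bone cell genes (6) gave 26.5 to 60.3, 55.7 to 145, 30.7 to 40 and 118.5 CPM. Proliferation genes (8) gave 48.1 to 82.5, 98.4 to 270.1, 36.7 to 53.6 and 201 CPM. So RvD6si 15 lay above every vehicle library in all 6 of these lists.

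Calls in these lists were few with all libraries. In RvD6 against vehicle edgeR called 0 genes of the 6 lists, and DESeq2 called, beside Slc4a1, the bone cell genes Ctsk (cathepsin K of osteoclasts, 1.16) and Bglap (osteocalcin of osteoblasts, 2.35). In RvD6si against RvD6 edgeR called Ctsk (-1.21, adjusted p 0.0349 in edgeR), which DESeq2 called as well, and DESeq2 also called the monocyte receptor Ccr2 (-1.49). With all libraries no gene of the 6 lists was called in RvD6si against vehicle by either tool. There DESeq2 gave an adjusted p to 6 erythroid, 3 platelet, 1 eosinophil, 3 monocyte, 3 bone cell and 4 proliferation genes. The smallest p in RvD6 against vehicle belonged to Prg2 (2.43) for eosinophils, Pf4 (1.40) for platelets, Mki67 (3.35) for proliferation and Ccr2 (1.04) for monocytes. Their adjusted p in edgeR was 0.18, 0.26, 0.191 and 0.212. Without RvD6si 15, DESeq2 called 4 erythroid genes lower in RvD6si than in vehicle, among them the globin genes Hbb-bt (-1.16, adjusted p 0.00306 in DESeq2) and Hba-a2 (-1.18, adjusted p 0.00302 in DESeq2), and the monocyte gene Ly6c2 (-1.46, adjusted p 0.00618 in DESeq2), and edgeR called 0. In RvD6si against RvD6, edgeR then called lower 8 erythroid, 3 platelet, 2 eosinophil, 2 monocyte, 1 bone cell and 3 proliferation genes, and DESeq2 8, 5, 3, 3, 3 and 5. In RvD6 against vehicle, edgeR then called higher 4 erythroid, 1 platelet and 1 bone cell gene, and DESeq2 8, 1 and 3, with 2 eosinophil and 3 proliferation genes.

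In macrophage, B lineage and T and NK genes RvD6si 15 also lay above every vehicle library in sum. The 10 macrophage genes summed to 97.6 to 139 CPM in vehicle, 90.8 to 174 in RvD6, 83.2 to 124 in RvD6si 11 to 14 and 144 in RvD6si 15, with Cd68 (1.45) called in RvD6 against vehicle by DESeq2 only. T and NK genes (8) summed to 0 to 4.12 CPM in vehicle, 2.93 to 10.2 in RvD6 and 8.16 in RvD6si 15, and 1 was tested, Ncr1, which was not called. The 10 B lineage genes summed to 78.8 to 109 CPM in vehicle, 103 to 165 in RvD6, 101 to 119.6 in RvD6si 11 to 14 and 158 in RvD6si 15, with Ebf1 (0.37) called by DESeq2 in RvD6si against vehicle. All 7 tested B lineage genes were above 0 in RvD6 against vehicle, with a median of 1.67, 1 below 0.05 unadjusted and 0 calls by either tool. Their median was -1.21 in RvD6si against RvD6, and -2.30 without RvD6si 15, where DESeq2 called 1 lower, the B cell receptor gene Cd79b (-2.89, adjusted p 0.00242 in DESeq2). Their part in the results was not tested. Sensory neuron genes (10) had a median log2 fold change of -0.35 in RvD6 against vehicle, 6 below 0.05 unadjusted and 0 calls by either tool. For the 5 satellite glia genes the median was -0.21, and Apoe (-0.40) was called by DESeq2 in RvD6si against vehicle. For the 5 Schwann cell genes it was -0.05, and Prx (0.83) was called by DESeq2 in RvD6si against vehicle.

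Skeletal muscle and pituitary sums were, like the members, above the vehicle median in all 5 RvD6 libraries. In RvD6si 15, where the members were high, both sums lay below it. The highest vehicle library was vehicle 4 for muscle, as for 8 of 10 members, and vehicle 3 for pituitary genes. The part of these tissues in the members' values was not tested. The 6 muscle genes were above 0 in RvD6 against vehicle (median 4.10, 6 DESeq2 calls and 0 in edgeR), led by Ckm, Acta1 and Mylpf at 4.16, 3.69 and 4.03. In RvD6si against RvD6 edgeR called 5 of them lower, Acta1 at -5.30 among them. RvD6si 15 had the lowest muscle sum of all 15 libraries, 8.61 CPM, and RvD6 9, with the highest, was the lowest RvD6 library for 10 of 10 members. Without RvD6 libraries 8 and 9, the median log2 fold change of the mature genes in RvD6 against vehicle was 2.98 and that of the promyelocyte genes 2.54. In that fit 9 of 10 members were below 0.05 unadjusted and 0 were called in edgeR. The share of all genes in that fit is not given here, so these counts are not read as particular to the members. The pituitary genes (6) summed to 9.97 to 3745 CPM in vehicle, 226 to 2299 in RvD6 and 19.9 to 656.5 in RvD6si, with 57.3 CPM in RvD6si 15. DESeq2 called Pomc (5.33) in RvD6 against vehicle and (-5.28) in RvD6si against RvD6. Without RvD6si 15, DESeq2 called Flt3, Serpinb6a, Ebf1, Apoe and Prx in RvD6si against vehicle and Pomc in RvD6si against RvD6 in the same directions, and edgeR called 5 muscle genes lower in RvD6si than in RvD6.

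**Figure D4:**
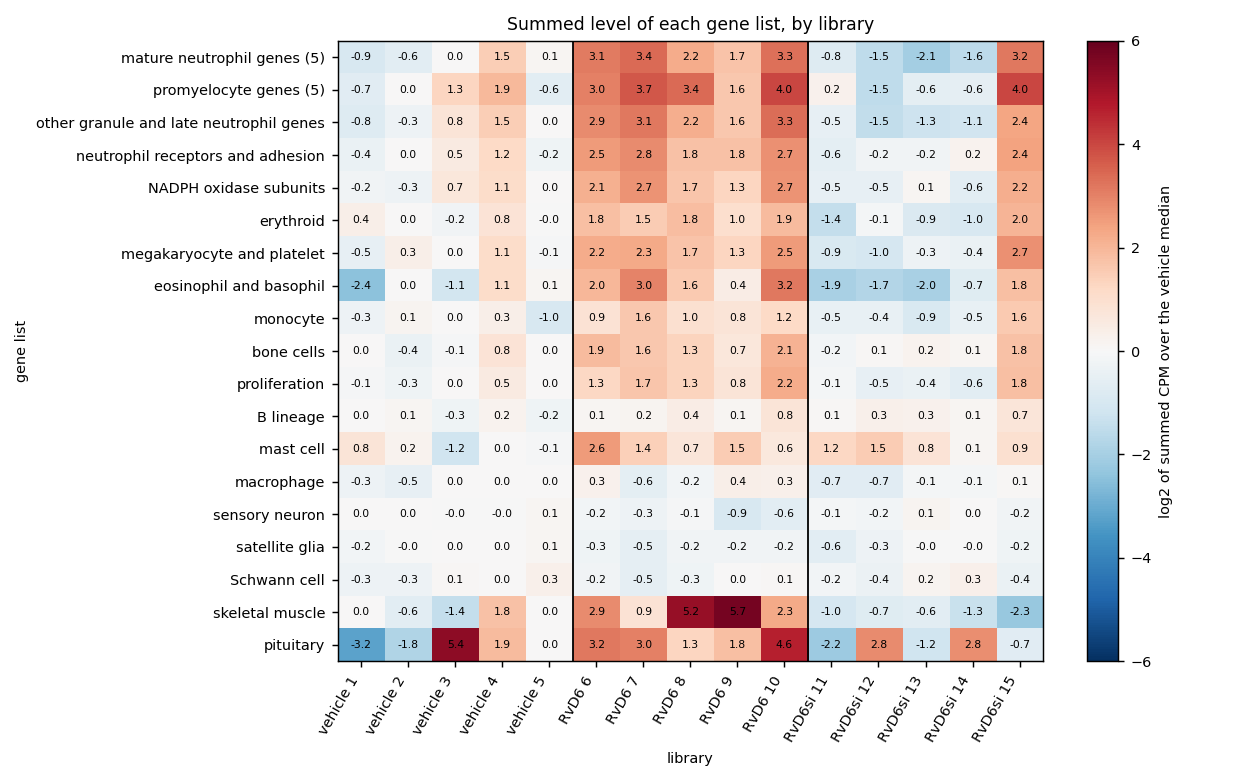
Log2 ratio of the summed CPM of each gene list to its vehicle median, for each of the 15 libraries, with black lines between vehicle, RvD6 and RvD6si. The rows from mature neutrophil to proliferation genes are above 0 in all 5 RvD6 libraries and in RvD6si 15. The sensory neuron, satellite glia and Schwann cell rows lie between -0.95 and 0.33. The muscle and pituitary rows are above 0 in all 5 RvD6 libraries and below 0 in RvD6si 15.

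The genes whose log2 CPM followed the members most closely over the 15 libraries were found among all genes tested. For the mature mean these were Retnlg (Pearson r 0.986), Lcn2 (0.978), Lyz2 (0.972), Ear10 (0.970) and Knl1 (0.953). Retnlg encodes a resistin-like protein of neutrophils, Lcn2 the secondary granule protein lipocalin 2, Lyz2 the lysozyme of myeloid cells and Knl1 a kinetochore protein. Centred within each group, r was 0.972, 0.965, 0.953, 0.961 and 0.901. For the promyelocyte mean they were Ctse (0.963), Gm4739 (0.963), Lcn2 (0.957), Epb42, which encodes an erythrocyte membrane protein (0.948), and Knl1 (0.942), with centred values of 0.930, 0.944, 0.962, 0.909 and 0.904. Lcn2 and Knl1 stood in both lists. Lcn2 measured 19.7 to 96.5 CPM in vehicle, 92.5 to 304 in RvD6, 7.37 to 14.3 in RvD6si 11 to 14 and 239 in RvD6si 15.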

How the data were processed

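The authors prepared libraries from total RNA of each TG with an adapted Smart-seq2 protocol, aligned reads to GRCm38 with Rsubread, using the GENCODE annotation, release 22, and summed reads over each gene's exons in featureCounts (version 1.5.0-p1 in the file header, Subread 1.6.5 in the labels), without strand. The deposited values are raw counts, and symbols came from GENCODE release 21, which named 99.7% of the genes. Totals ran from 4125962 to 9903396 per library, with a median of 7756538. Replicate pairs differed by 11.3 to 49.2 times the counting noise, so none was a copy.

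Counts entered edgeR 4.0.16's quasi-likelihood test (R 4.3.3), all 15 libraries in 1 fit, TMM scaling, a minimum count of 10 and total of 15, and Benjamini-Hochberg adjustment over all genes. DESeq2 1.42.0 was the alternative. It gave an adjusted p to 19190 genes in RvD6 against vehicle and 11321 in RvD6si against vehicle. Genes without one could not be called. Intervals are 95% intervals of the edgeR log2 fold change, and its SE is that change divided by the square root of F. The steps were tested on simulated data. Named were all members, and of each other list at most 3 genes with the smallest edgeR p among those called by either tool, or 1 where none was; Csf2, Csf3 and other genes at 0 or near 0, and genes given for their library values, were named beside this rule. Likeness is Pearson r on log2 CPM (prior count 2), without a test. The members and lists were chosen with earlier results of these data known. Alternatives were DESeq2, a robust prior, the 2 groups alone, RLE scaling, no filter, removal of a length trend (lowess, span 0.3), thinning and each library left out; leaving out RvD6 8 and 9, and RvD6si 15 in DESeq2, was added after seeing the data. No mapping rates, protein sequences or genome sequence beyond the promoters were used here.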

Additional observations from a re-analysis of the deposited data

Results flagged for a closer look

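A library was singled out where its gap to the nearest other library of its group of 5 exceeded 0.71 of the group's range. For normally distributed values, chance passes this limit in about 1 group in 20. It was applied to CPM and not to its logarithm, so which libraries pass may depend on that scale. Of 30 groups of values (10 genes in 3 groups), 13 passed. RvD6si replicate 15 did so in 9 genes, as the highest of its group: S100a8 (342 CPM), S100a9 (444 CPM), Ngp (617 CPM), Camp (149 CPM), Ltf (239 CPM), Mpo (84.5 CPM), Elane (44.9 CPM), Prtn3 (23.3 CPM) and Ctsg (23.3 CPM). Ms4a3 was the member in which this library did not pass. Vehicle replicate 4 did so in 4 genes, as the highest vehicle library: S100a8 (69.5 CPM), Ngp (222 CPM), Camp (42.9 CPM) and Elane (11.3 CPM). No RvD6 library passed for any member. The 13 cases come from 2 libraries, and the 10 genes are not independent of each other. RvD6si 15 was also the shallowest library, and erythroid, platelet, eosinophil, monocyte, bone cell and proliferation markers were high in it; the part of these in its values was not tested.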

How the results depend on the processing

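No paired analysis was possible because the groups share no replicate number. Of 1012 values recomputed over 24 settings, 932 kept their direction and side of the threshold or moved by less than the spread between libraries. Only leaving out RvD6si 15 and fitting 2 groups alone changed a count of calls. With each library left out in turn, members called ranged from 0 to 5 (RvD6 against vehicle), stayed at 0 (RvD6si against vehicle) and ranged from 0 to 7 (RvD6si against RvD6). Members below 0.05 unadjusted ranged from 7 to 10, 0 to 6 and 1 to 10. Shares of all genes are not given for every such fit, so these counts show only how far the results moved. The mature and promyelocyte medians ranged from 2.40 to 3.22 and 1.95 to 3.05, from -1.62 to 1.62 and -1.28 to 1.55, and from -4.29 to -1.23 and -3.65 to -1.15, in the same order of contrasts. The counts of 5, 7 and 6, the upper 10 of RvD6si against RvD6 and the lowest medians of the RvD6si contrasts came without RvD6si 15, and the other 14 libraries left each count of calls at 0. The highest medians of both contrasts with vehicle came without vehicle 4. Without RvD6si 12, 1 member (against vehicle), and without RvD6si 11 or 14, 1 member (against RvD6), was below 0.05. Fitted on the 2 groups alone, edgeR called 4 members in RvD6 against vehicle. In RvD6si against RvD6, 1 member was below 0.05 with the robust prior and 5 without the filter. DESeq2 without RvD6si 15 called 7, 6 and 9 members, had 6 and 10 below 0.05 in the RvD6si contrasts, and gave medians of -1.60 and -1.29 (RvD6si against vehicle) and -4.30 and -3.67 (RvD6si against RvD6).

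Against vehicle, RvD6si turned below 0 without RvD6si 15 for all members, in edgeR and DESeq2: S100a8 (-1.59 and -1.58), S100a9 (-1.54 and -1.54), Ngp (-1.62 and -1.60), Camp (-1.70 and -1.69), Ltf (-1.91 and -1.88), Mpo (-1.23 and -1.23), Elane (-2.83 and -2.85), Prtn3 (-1.41 and -1.42), Ctsg (-1.28 and -1.29) and Ms4a3 (-0.22 and -0.20). Ltf also turned without vehicle 1 (-0.15), 2 (-0.13) and 3 (-0.03). The highest values with a library left out were 1.79 (S100a8), 1.37 (Ngp), 1.85 (Camp), 0.45 (Ltf), 2.16 (Mpo) and 2.00 (Elane), all without vehicle 4, 1.51 (Prtn3, without vehicle 3) and 0.78 (Ms4a3, without vehicle 2). Of the 5 genes most like each class, Spearman ranks kept 3 (mature) and 2 (promyelocyte). Counts of the promyelocyte genes, at or near 0 reads in some libraries, limit what depth can show for them.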

Other observations

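Mast cell genes belong to another granulocyte-like lineage of the tissue. Like the neutrophil genes, they were above the vehicle median (7.56 CPM in sum) in every RvD6 library. Unlike the neutrophil genes, they were above it in every RvD6si library, and RvD6si 15 did not stand apart. The 6 genes summed to 3.34 to 13.1 CPM in vehicle, 11.6 to 45.0 CPM in RvD6 and 8.24 to 21.4 CPM in RvD6si, and RvD6si 15 lay inside the range of its group at 14.5 CPM. Of 4 tested, 0 were called by edgeR in RvD6 against vehicle, 3 were below 0.05 unadjusted, and DESeq2 called 1, the carboxypeptidase gene Cpa3, at 1.62 (adjusted p 0.174 in edgeR and 0.0324 in DESeq2). Cpa3 measured 0.75 to 4.12 CPM in vehicle, 5.31 to 10.7 CPM in RvD6 and 1.73 to 7.48 CPM in RvD6si, so vehicle and RvD6 did not overlap. In RvD6si against vehicle Tpsb2, a mast cell tryptase, had the smallest p, at 2.17 with an adjusted p of 0.175 in edgeR.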
